A study of Mus musculus with 4 samples.

Results

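The cells described here are the mouse embryonic stem cells (mESCs) with the highest share of RNA from 12 genes of the G2 phase and mitosis, and are named G2/M-high mESCs. A cell entered with at least 2000 UMIs (unique molecular identifiers, each counted as 1 captured RNA molecule) and at most 20% of its UMIs from mitochondrial genes. Its score was the number of UMIs of Top2a, Mki67, Cenpf, Tpx2, Ube2c, Nusap1, Cdk1, Kif11, Aurkb, Birc5, Hmmr and Cenpe divided by all its UMIs. The members were chosen by this score alone, as the 279 cells with the highest 15% of scores out of 1861 mESCs, and were compared with the 930 cells in the lowest 50%. A middle group of 652 cells lay between them. Across the 3 cell lines of the experiment, 5706 cells passed the same filter.

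RNA of single cells from 3 mouse lines was measured by CapSeq, in which cells enclosed in gel capsules receive 3 barcodes in turn, and each line had its own wells of the first barcode (BC1). The mESCs were E14TG2a cells, an established line, grown on gelatin with serum, leukemia inhibitory factor, 3 µM CHIR99021 and 1 µM PD0325901. N2a (Neuro-2a, a neuroblastoma line) and NIH/3T3 (an embryonic fibroblast line) cells were grown in DMEM with serum and without these inhibitors. Each line was 1 sample, and the number of cultures behind it is not given in the sources used here. Cells are therefore not replicates, and no test was made. Intervals cover counting error only, except those of medians, which cover the spread between cells of 1 sample. The mESC matrix held 13875356 UMIs, against 20662884 for N2a and 13505027 for NIH/3T3. No cell barcode was shared between the 3 matrices, which follows from splitting them by BC1, a part of the barcode.

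In the cell division cycle, DNA is copied in S phase, and the cell then passes through G2 into mitosis (M), where chromosomes condense, attach to the spindle through kinetochores and separate. Cyclin B with the kinase Cdk1 drives entry into mitosis, and a ubiquitin ligase, the anaphase-promoting complex (APC/C), ends it by marking cyclin B for destruction. Many genes for these proteins are switched on together in G2 through promoter elements named CHR and CCAAT, bound by the MuvB and B-Myb proteins and by NF-Y. Embryonic stem cells divide fast and are known for a short G1 phase.

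As examples of such promoters, the DNA before the RefSeq start of 3 genes is shown. They had the largest ratio outside the score among genes with at least 25 CPM (UMIs of the gene per 1000000 UMIs) and an entry in the RefSeq promoter table. The genes are Gas2l3, whose protein links actin and microtubules in dividing cells, Plk1, a kinase of mitotic entry and spindle assembly, and Prr11, a gene of cell division. Sequences run 5′ to 3′ toward the gene, and capitals mark matches to TTTGAA or TTCGAA (CHR letters) and to CCAAT, on either strand, where ATTGG is CCAAT on the other strand. The sequences come from the table, which uses GRCm38.p6, and each matched 1 place in GRCm39, whose coordinates are given. They lie at chr10:89279830-89280079 on the minus strand for Gas2l3, at chr7:121758408-121758657 on the plus strand for Plk1, and at chr11:86999610-86999790 on the minus strand for Prr11.
Gas2l3: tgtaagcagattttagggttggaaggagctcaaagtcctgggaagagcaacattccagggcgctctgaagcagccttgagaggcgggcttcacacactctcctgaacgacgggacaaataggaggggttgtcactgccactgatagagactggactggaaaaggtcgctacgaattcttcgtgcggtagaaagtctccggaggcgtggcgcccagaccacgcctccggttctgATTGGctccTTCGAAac
Plk1: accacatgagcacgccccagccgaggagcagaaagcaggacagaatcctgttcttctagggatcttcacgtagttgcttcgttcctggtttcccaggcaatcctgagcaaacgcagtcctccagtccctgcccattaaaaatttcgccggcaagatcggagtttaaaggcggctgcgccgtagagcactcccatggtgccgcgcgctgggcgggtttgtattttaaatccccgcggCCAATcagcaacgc
Prr11: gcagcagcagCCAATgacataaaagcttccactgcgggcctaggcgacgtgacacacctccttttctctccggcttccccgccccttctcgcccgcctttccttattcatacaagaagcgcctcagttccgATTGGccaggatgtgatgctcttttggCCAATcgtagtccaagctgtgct
In Gas2l3, TTCGAA began 8 bases before the RefSeq start and a reversed CCAAT 17 bases before it. In Plk1, CCAAT began 14 bases before the start, and TTTGAA lay 31 bases after it, outside the bases shown. GENCODE begins Plk1 within the shown sequence, so that its last 12 bases, and part of the CCAAT match, lie inside the GENCODE gene. For Prr11, the shown sequence has 181 bases and stops 69 bases before the RefSeq start, because GENCODE begins the gene there. Its CCAAT matches lay 240, 119, 92 and 25 bases before the RefSeq start, of which the last is not shown, and TTTGAA lay 4 bases after it.

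Over windows from 250 bases before to 50 bases after the start, 19.2% of all 32851 promoters in the table held TTTGAA or TTCGAA and 37.4% held CCAAT. The table held promoters of 128 of the 152 G2/M genes outside the score, some with more than 1. Of these 149 promoters, 52.3% held the CHR letters and 67.1% held CCAAT. Among these, the 54 promoters of genes at least 1.5-fold higher in G2/M-high mESCs held both motifs in 68.5%, and the 95 promoters of the others in 24.2%. The share with both was 7.52% over all promoters. It was 5.99% over the 9316 promoters of genes outside the score with at least 10 CPM. Promoters of replication-dependent histone genes, whose measured members were lower in G2/M-high mESCs, held both in 46.6%. The ratio chose the 54 promoters, so these shares describe them, and a match is no evidence of binding.

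The score itself spread without a gap. Its median was 65.6 score UMIs per 10000 UMIs in G2/M-high mESCs (quartiles 60.3 and 73.8, range 55.9 to 110.2), 41.8 in the middle group and 23.5 in the lowest 50%. A G2/M-high mESC held a median of 36 score UMIs and a cell of the lowest 50% a median of 12. The last member had 55.8773 and the first cell left out 55.8767, and 191 cells lay within 10% of that value. For 237 of the 279 members, the exact Poisson interval of the cell's own score UMIs reached below the limit, and for 55 cells of the lowest 50% it reached above it. G2/M-high is therefore a range of a per-cell score and not a separate type.

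**Figure D1:**
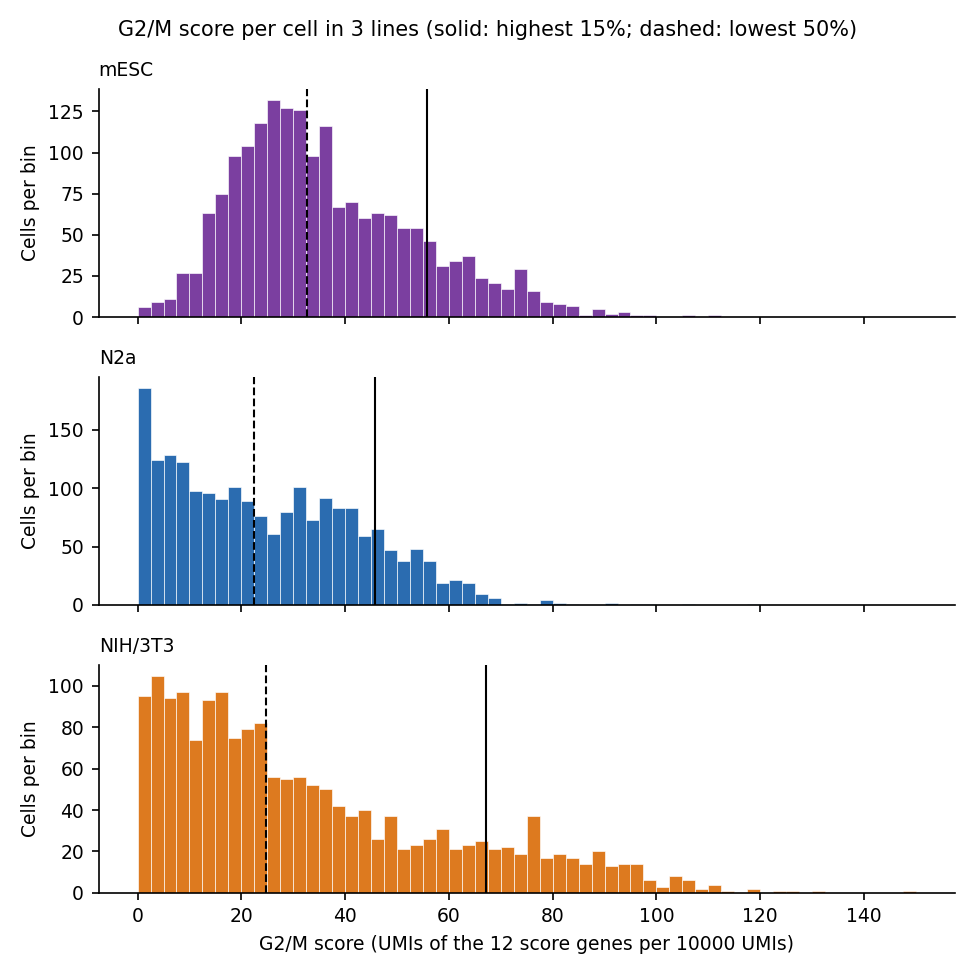
Cells per bin of the G2/M score (UMIs of the 12 score genes per 10000 UMIs) in each line, with a solid line at the limit for the highest 15% and a dashed line at the limit for the lowest 50%. In mESCs 3 cells of the lowest 50% had a score of 0, against 104 N2a and 50 NIH/3T3 cells.

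The members were as deeply sequenced as the other mESCs. G2/M-high mESCs held a median of 5397 UMIs (95% interval 4955 to 5942) and cells of the lowest 50% a median of 5250 (5027 to 5476). After each cell was thinned to 2000 UMIs, the median number of genes was 1419 (1414 to 1427) in G2/M-high mESCs and 1415 (1411 to 1418) in the lowest 50%. Mitochondrial genes gave a median of 1.95% and 2.03% of UMIs. No doublet caller was run. Without the 5% of cells with the most UMIs, the summed ratio of the G2/M genes outside the score, described next, was 1.341, against 1.338 with them.

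The members also came from all over the mESC wells. Each of the 32 BC1 wells with mESCs gave 38 to 90 cells and 3 to 16 members, or 6.52% to 23.4% of its cells (median 15.5%).

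The 12 score genes chose the cells, so their levels are a description. Levels are UMIs summed over the cells of a group, in CPM, and ratios are G2/M-high over lowest 50%. Top2a, the topoisomerase that untangles chromosomes, was at 1814 CPM in G2/M-high mESCs, 1156 in the middle group and 657 in the lowest 50%. Mki67, which coats mitotic chromosomes, was at 677, 487 and 267 CPM. Cenpf, a kinetochore protein, was at 793, 372 and 155 CPM. The log2 ratio of (CPM + 1) was 2.35 for Cenpf and 2.13 for Nusap1, a microtubule-binding protein of the spindle, and at the other end 0.63 for Birc5, the survivin subunit of the chromosomal passenger complex.

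Outside the score, 9080 genes had at least 10 CPM over all filtered mESCs. Of these, 227 (2.5%) were at least 1.5-fold higher in G2/M-high mESCs and 266 (2.93%) at least 1.5-fold lower, on the (CPM + 1) scale. Of these, 127 and 96 had at least 20 CPM, and the others were counted from few UMIs in the members. The median log2 ratio over all of them was -0.02, and 90% lay between -0.48 and 0.44. Of the 227 higher genes, 61 were among the 152 G2/M genes outside the score, a list of 6 groups described next, and 12 of the 266 lower genes were replication-dependent histone genes. The 152 genes together stood at 29248 CPM in G2/M-high mESCs and 21858 CPM in the lowest 50%, a summed ratio of 1.34 (95% interval 1.32 to 1.35). Cell by cell, they gave a median of 291 of 10000 UMIs in members and 220 in the lowest 50%, and 96.8% of members lay above the latter value.

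**Figure D2:**
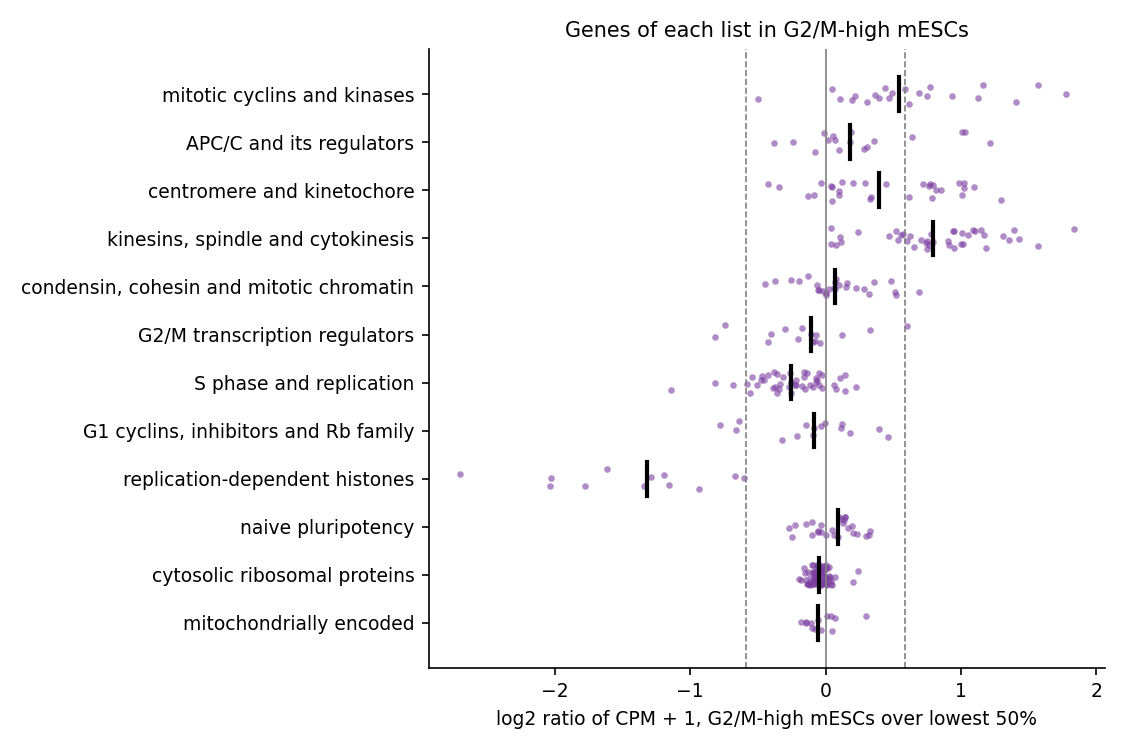
Log2 ratio of (CPM + 1), G2/M-high mESCs over the lowest 50%, for each gene with at least 10 CPM in 12 lists. Points are genes, black bars are list medians and dashed lines mark 1.5-fold. The spindle list lies furthest to the right with a median of 0.79, and the histone list furthest to the left with a median of -1.32.

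The genes of the spindle and of cytokinesis had the highest median and the most genes past 1.5-fold among the G2/M groups. Of 41 kinesin, spindle and cytokinesis genes, 30 were at least 1.5-fold higher and none was 1.5-fold lower, with a median log2 ratio of 0.79 and a summed ratio of 1.70 (1.67 to 1.73). Gas2l3 was at 94.0 CPM in G2/M-high mESCs, 53.7 in the middle group and 25.6 in the lowest 50%, a ratio of 3.67 (2.92 to 4.61). Depdc1a, a gene of mitosis, was at 64.0, 40.5 and 20.9 CPM. Prc1, which bundles microtubules in the central spindle, was at 583, 375 and 216 CPM, a log2 ratio of (CPM + 1) of 1.43. The intervals of the 3 groups did not overlap for any of these genes. Kif23, a kinesin of the central spindle, was at 213, 157 and 80.7 CPM, and Ckap2l, a spindle protein, was at 150, 110 and 57.7 CPM. At the low end of the list, Stmn1, which destabilises microtubules, was at 81.5 CPM in members and 79.3 CPM in the lowest 50%.

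Mitotic cyclins and kinases came next. Of 22 genes, 11 were at least 1.5-fold higher and none 1.5-fold lower, with a median log2 ratio of 0.54 and a summed ratio of 1.66 (1.61 to 1.72), whose interval overlaps that of the spindle list. Plk1 was at 169 CPM in G2/M-high mESCs, 107 in the middle group and 48.8 in the lowest 50%, a ratio of 3.47 (2.94 to 4.10). Aurka, a kinase of the spindle poles, was at 172, 127 and 57.2 CPM, a ratio of 3.00 (2.56 to 3.52). Its log2 ratio of (CPM + 1) was 1.57, and 2.189 against the lowest 25%. Ccnb1, the cyclin B that partners Cdk1, was at 432, 282 and 162 CPM, a ratio of 2.67 (2.42 to 2.94). All 3 were above the middle group by more than their intervals. Ccna2, the cyclin A of S phase and G2, had a smaller ratio of 1.41 (1.24 to 1.60), from 203 CPM in members and 144 CPM in the lowest 50%. Pkmyt1, a kinase that holds Cdk1 inactive, had the smallest ratio of the group, 0.695 (0.445 to 1.05), from 28 UMIs in members.

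At the centromere and kinetochore, 14 of 30 genes were at least 1.5-fold higher and none 1.5-fold lower, with a summed ratio of 1.48 (1.44 to 1.53). Sgo2a, which protects cohesin at centromeres, was at 398 CPM in G2/M-high mESCs, 285 in the middle group and 185 in the lowest 50%. Incenp, the scaffold of the chromosomal passenger complex, was at 200, 151 and 98.1 CPM. Cenpa, the centromeric histone itself, was at 150, 103 and 73.4 CPM, a ratio of 2.05 (1.75 to 2.39). Dsn1, of the kinetochore, was at 18.7 CPM in members and 25.4 CPM in the lowest 50%, with an interval of the ratio that held 1 (0.487 to 1.08).

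The ligase that ends mitosis differed less as a whole. Of 17 genes of the APC/C and its regulators, 4 were at least 1.5-fold higher and none 1.5-fold lower, with a median log2 ratio of 0.18. Both of its activators were among the higher genes. Cdc20, the activator used in mitosis, was at 203 CPM in G2/M-high mESCs, 129 in the middle group and 101 in the lowest 50%, a ratio of 2.02 (1.76 to 2.31). Fzr1, the activator used after mitosis and in G1, was at 93.4, 63.0 and 39.7 CPM, a ratio of 2.36 (1.92 to 2.89). Bub3, of the spindle checkpoint, was at 183, 131 and 89.1 CPM. Ube2s, which extends ubiquitin chains with the APC/C, was at 25.5 CPM in members and 33.5 CPM in the lowest 50%, and the interval of its ratio held 1 (0.537 to 1.06).

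Genes of chromosome structure differed less still. Of 27 genes of condensin, cohesin and mitotic chromatin, 1 was at least 1.5-fold higher, Smc4, a condensin core subunit, at 706 CPM in G2/M-high mESCs, 549 in the middle group and 436 in the lowest 50%. Its partner Smc2 was at 498, 402 and 348 CPM. Ncapg2, also a condensin subunit, had the smallest ratio of the list, 0.731 (0.604 to 0.880), from 79.3 CPM in members and 108 CPM in the lowest 50%. In all, 18 of the 27 genes had a ratio above 1. The share at least 1.5-fold higher over all 9080 genes was 2.5%. The list's summed ratio was 1.10 (1.08 to 1.12), and its median log2 ratio was 0.07.

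As a group, the regulators of these genes were not higher. Of 15 transcription regulators of G2/M genes, 1 was at least 1.5-fold higher and 2 were at least 1.5-fold lower, with a median log2 ratio of -0.11 and a summed ratio of 0.876 (0.836 to 0.919). The shares over all 9080 genes were 2.5% higher and 2.93% lower. Foxm1, a forkhead activator of G2/M genes, was at 17.6 CPM in G2/M-high mESCs, 16.4 in the middle group and 11.2 in the lowest 50%, and the interval of its ratio held 1 (0.984 to 2.44). E2f8, a repressor of E2F targets, was at 11.9, 16.4 and 21.8 CPM, a ratio of 0.547 (0.327 to 0.872).

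Dnah8 codes for a dynein heavy chain of cilia and flagella and stands in no list used here. It had the fourth largest ratio among the 6619 genes outside the score with at least 25 CPM. It was at 155 CPM in G2/M-high mESCs, 103 in the middle group and 47.9 in the lowest 50%, a ratio of 3.23 (2.72 to 3.83). In G2/M-high cells of the other lines it was near 0, at 1.11 CPM in N2a and 0.528 CPM in NIH/3T3. The gene lies at chr17:30843328-31096339 (GRCm39, plus strand) and overlaps Glo1 and 6 other genes on the opposite strand. How the counting used strand is not given in the sources used here, so reads of these genes cannot be told apart from its own.

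**Figure D3:**
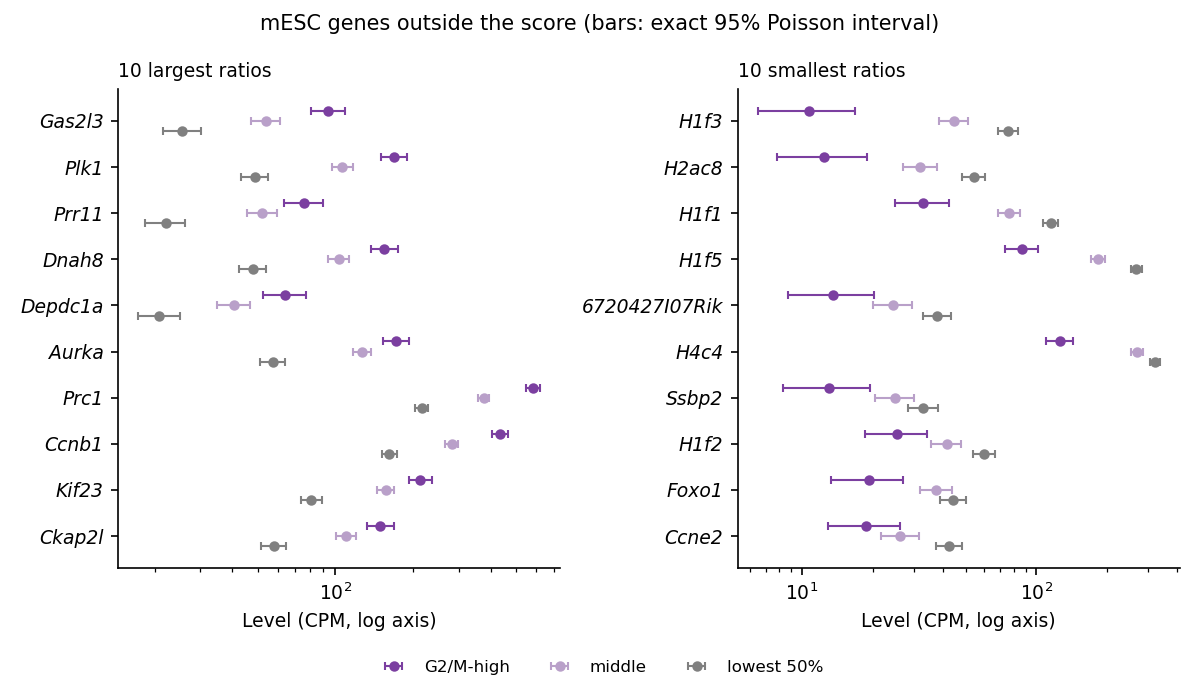
Levels in CPM, on a log axis, of the 10 genes with the largest and the 10 with the smallest ratio outside the score, among genes with at least 25 CPM. Points are the 3 groups of mESCs and bars are exact 95% Poisson intervals. In all 20 genes the middle group lies between the G2/M-high cells and the lowest 50%.

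On the lower side, histone genes led. Replication-dependent histone genes supply the histones that package new DNA, and most of their mRNAs end in a stem-loop in place of a poly(A) tail and are destroyed when S phase ends. Of the 63 such genes listed, 12 had at least 10 CPM, and all 12 were at least 1.5-fold lower in G2/M-high mESCs. The 63 together were at 445 CPM in G2/M-high mESCs, 899 in the middle group and 1220 in the lowest 50%, a summed ratio of 0.364 (0.338 to 0.392). H1f3, a linker histone, was at 10.8, 44.5 and 75.6 CPM, a ratio of 0.142 (0.085 to 0.225) from 19 UMIs in members. Its log2 ratio of (CPM + 1) was -2.70, and -1.86 when cells were chosen by a score from 2000 UMIs per cell. H1f5, also a linker histone, was at 86.6, 183 and 268 CPM, a ratio of 0.324 (0.272 to 0.383). H4c4, a core histone, was at 126, 270 and 321 CPM, a ratio of 0.392 (0.339 to 0.450). H1f1, H1f2 and H2ac8 were also among the 10 smallest ratios, with log2 ratios of -1.78, -1.20 and -2.03.

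The difference was present across cells and wells. Histone genes gave a median of 2.14 of 10000 UMIs in a G2/M-high mESC (quartiles 0 and 6.49) and 10.4 in a cell of the lowest 50% (4.31 and 16.6), and 14.0% of members lay above the latter median. The summed ratio was below 1 in 31 of the 32 BC1 wells, and H1f5 was higher in members in none of them. These wells are parts of 1 sample and not replicates. Members held 153 UMIs of H1f5 over all wells, and a well without any in its members counted as not higher. Core histone genes are near-identical copies of each other, so how UMIs were split among H4c4, H2ac8 and their copies is uncertain. The sum over all copies does not depend on how counted UMIs were split. Whether reads that match several copies were counted is not given in the sources used here. The part of such reads in the sum was not tested.

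The 4 other genes among the 10 smallest ratios were Ccne2, Foxo1, Ssbp2 and 6720427I07Rik. Ccne2, the cyclin E of S phase entry, was at 18.7 CPM in G2/M-high mESCs, 26.3 in the middle group and 42.5 in the lowest 50%, a ratio of 0.440 (0.296 to 0.635). Foxo1, a forkhead factor under insulin signalling, was at 19.3, 37.3 and 44.2 CPM. Ssbp2, a cofactor of LIM-domain transcription complexes, was at 13.0, 24.96 and 32.8 CPM. Its log2 ratio was -1.27, and -0.52, which is under 1.5-fold, when Top2a was left out of the score. The long noncoding RNA 6720427I07Rik was at 13.6, 24.5 and 37.7 CPM. Members held 23 to 34 UMIs of each of these 4 genes, so their ratios are among the least precise given here.

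Genes of S phase were lower by less. Of 47 S phase and replication genes, none was at least 1.5-fold higher and 3 were at least 1.5-fold lower, with a median log2 ratio of -0.26 and a summed ratio of 0.876 (0.860 to 0.892). Over all 9080 genes, 2.5% were at least 1.5-fold higher and 2.93% lower. Pcna, the sliding clamp of DNA polymerases, was at 277 CPM in G2/M-high mESCs, 314 in the middle group and 352 in the lowest 50%, a ratio of 0.789 (0.713 to 0.871). Mcm6, of the replicative helicase, was at 180, 191 and 215 CPM, and Ccne1, also a cyclin E, was at 101, 126 and 132 CPM. Orc1, of the origin recognition complex, went the other way, at 155 CPM in members and 133 CPM in the lowest 50%, a ratio of 1.17 (1.01 to 1.34).

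Genes of the G1 phase, which include both drivers and inhibitors of S phase entry, had a summed ratio near 1. Of 20 G1 cyclins, inhibitors and Rb family genes, 15 had at least 10 CPM, none was 1.5-fold higher and 3 were 1.5-fold lower, with a summed ratio of 0.936 (0.896 to 0.977). Among all 9080 genes, 2.93% were at least 1.5-fold lower. Btg2, an antiproliferative gene, was at 15.3 CPM in G2/M-high mESCs and 27.0 CPM in the lowest 50%, a ratio of 0.566 (0.361 to 0.856). Cdkn1b, the p27 inhibitor of cyclin-dependent kinases, was at 53.8 and 40.7 CPM, a ratio of 1.32 (1.03 to 1.68). Ccnd1, a cyclin D, was at 61.7 and 57.0 CPM.

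Stem cell markers differed little between G2/M-high mESCs and the rest. Of 28 naive pluripotency genes, 27 had at least 10 CPM, and none of them differed by 1.5-fold in either direction. Their summed level was 11856 CPM in G2/M-high mESCs and 11336 CPM in the lowest 50%, a ratio of 1.05 (1.03 to 1.06). Nanog was at 590 CPM in members, 597 in the middle group and 553 in the lowest 50%, and Pou5f1 was at 60.6, 60.7 and 54.9 CPM. Zfp42 (Rex1) was at 1426, 1319 and 1294 CPM. Dppa5a, a stem cell RNA-binding protein, was lower in members, at 1707, 1781 and 1889 CPM, a ratio of 0.904 (0.868 to 0.941). Esrrb, a nuclear receptor, was at 347, 367 and 355 CPM, and 17 of the 27 genes had a ratio above 1. The largest ratio in the list was 1.26 (1.20 to 1.32), for Tet1, which oxidises methylated DNA, and the smallest was 0.830 (0.736 to 0.933), for Klf4, a factor used in reprogramming. Primed and early lineage genes were low throughout, with 2 of 20 at 10 CPM or more, Dnmt3a and Dnmt3b, and 3 at 0 in all cells. Genes of the 2-cell-like state summed to 57.2 CPM in members and 61.4 CPM in the lowest 50%, intervals that overlap.

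Markers of the other lines were near 0 in the mESCs. The 4 N2a markers summed to 7.36 CPM in G2/M-high mESCs and 7.90 CPM in the lowest 50%, with Gm30835 the most abundant at 2.27 CPM. The 6 NIH/3T3 markers summed to 6.23 and 6.67 CPM, with Sema5a the most abundant at 2.27 CPM. None of these 10 genes reached 10 CPM, and the intervals of both ratios held 1.

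Outside the cell cycle, Malat1, a long noncoding RNA of nuclear speckles, was at 5820 CPM in G2/M-high mESCs, 4866 in the middle group and 4095 in the lowest 50%, a ratio of 1.42 (1.39 to 1.45). It made up most of a list of 11 RNA processing and nuclear noncoding RNA genes whose summed ratio was 1.34 (1.31 to 1.37). None of the 8 list members with at least 10 CPM passed 1.5-fold, and their median log2 ratio was 0.04. Snhg1, a host gene of small nucleolar RNAs, was at 146 CPM in members and 166 CPM in the lowest 50%, with an interval of the ratio that held 1 (0.766 to 1.01). Glycolysis genes had a summed ratio of 0.999 (0.968 to 1.03) and heat shock and stress genes one of 1.01 (0.993 to 1.02). In the latter list, Jun was the 1 gene past 1.5-fold, with 33 UMIs in members and a ratio of 1.77 (1.12 to 2.76). The 82 ribosomal protein genes with at least 10 CPM all lay within 1.5-fold, with a summed ratio of 0.966 (0.960 to 0.971), and the 13 mitochondrial genes summed to a ratio of 0.933 (0.922 to 0.944).

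Across the whole range of scores, the mESCs showed how far these lists followed it. Cells were split into 10 deciles by score. The 152 G2/M genes outside the score went up with every decile, from 19876 CPM in the first to 29858 CPM in the tenth. S phase genes were highest in decile 3, at 9832 CPM, and stood at 8886 CPM in decile 1 and 8468 CPM in decile 10. Histone genes were highest in decile 2, at 1300 CPM, and lowest in decile 10, at 398 CPM. Decile 1 also had the fewest UMIs per cell, a median of 4208 against 5075 to 5972 in the other 9, and the highest mitochondrial level, 26199 CPM against 19812 to 22489 CPM. The part of these 2 measures in the levels of decile 1 was not tested.

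**Figure D4:**
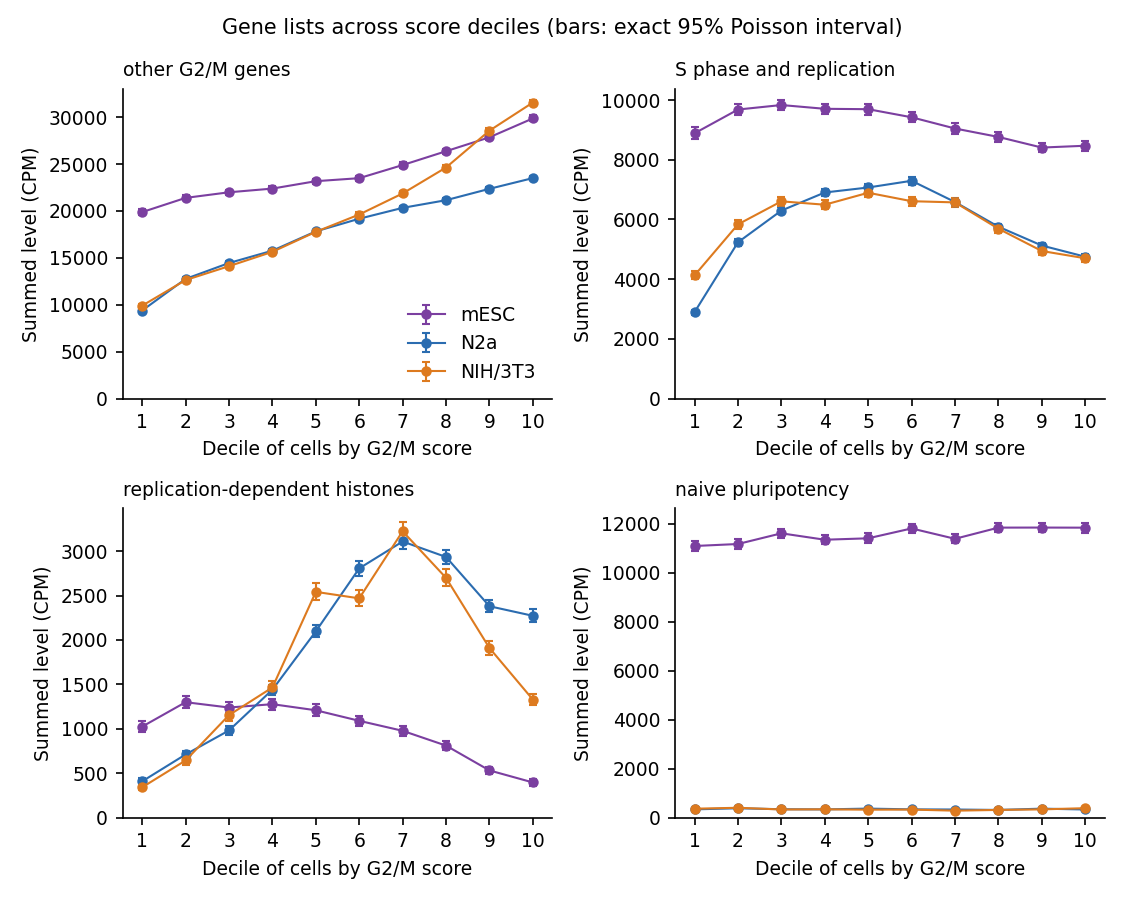
Summed level in CPM of 4 gene lists in each decile of cells by G2/M score, for the 3 lines, with exact 95% Poisson intervals. In mESCs the histone list is highest in decile 2 and lowest in decile 10, and in N2a and NIH/3T3 it is highest in decile 7.

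The mESC matrix also held 141428 barcodes with 1 to 100 UMIs, and whether these hold free RNA was not tested. Score genes were at 3623 CPM there, the other G2/M genes at 23117 CPM, S phase genes at 8967 CPM and histone genes at 1243 CPM. Score genes were at 6689 CPM in G2/M-high mESCs and 2315 CPM in the lowest 50%, so these barcodes lay between the groups, as they did for the other G2/M genes and for S phase genes. For histone genes their interval overlapped that of the lowest 50% (1192 to 1249 CPM). The part of their RNA in any level was not tested.

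The same rule was applied to N2a and NIH/3T3 cells for values side by side. It gave 310 of 2070 N2a cells, with a median score of 53.9 against 9.24 in their lowest 50%, and 266 of 1775 NIH/3T3 cells, with 82.1 against 11.7. In mESCs the lowest 50% had a median of 23.5, so the contrast in score was smaller. In N2a, 401 of 9165 genes (4.38%) were at least 1.5-fold higher and 200 (2.18%) lower, and in NIH/3T3, 458 of 9057 (5.06%) were higher and 363 (4.01%) lower. The G2/M genes outside the score had a summed ratio of 1.34 in mESCs, 1.64 in N2a and 2.187 in NIH/3T3. Of 148 of these genes with at least 10 CPM in all 3 lines, 133 had a larger log2 ratio in N2a than in mESCs and 138 a larger one in NIH/3T3. With 1 sample per line and a different spread of scores in each, these differences were not tested.

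**Figure D5:**
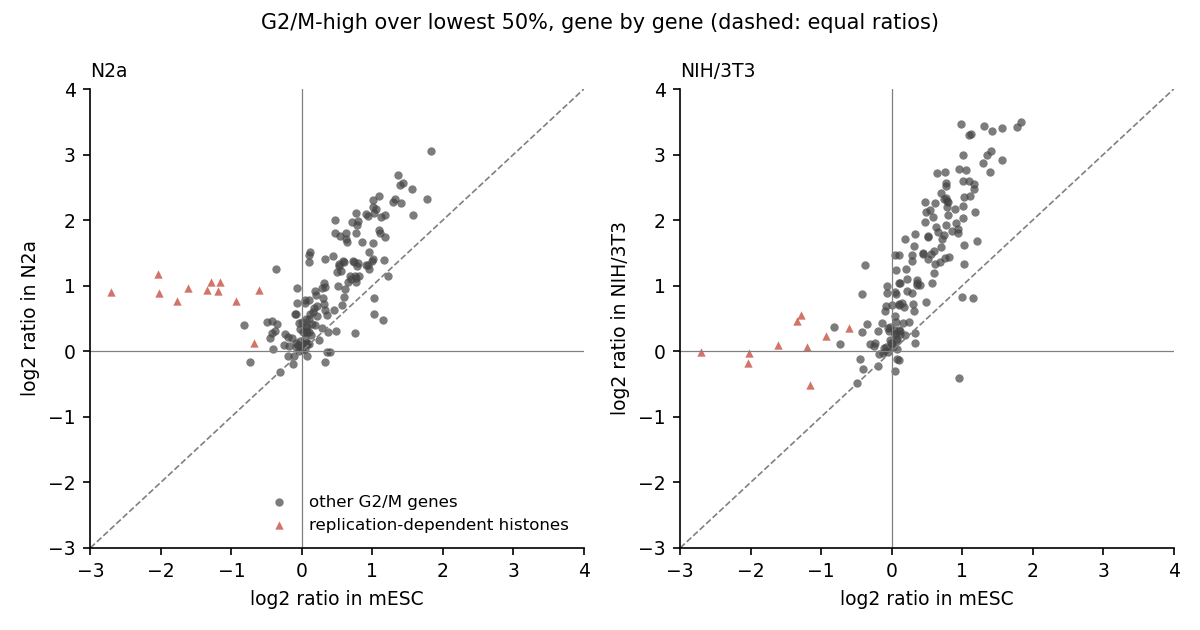
Log2 ratio of (CPM + 1), G2/M-high over lowest 50%, for each gene in mESCs (x axis) against N2a or NIH/3T3 (y axis), among genes with at least 10 CPM in both lines of a panel. Most G2/M genes lie above the dashed line of equal ratios, and the histone genes lie to the left of 0 in mESCs.

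Single genes of the spindle and of mitotic entry gave values in the same order. The log2 ratio of Plk1 was 1.77 in mESCs, 2.33 in N2a and 3.42 in NIH/3T3, and that of Gas2l3 was 1.84, 3.05 and 3.49. That of Ccnb1 was 1.41, 2.26 and 3.05. These 3 genes had their smallest ratio in mESCs. The low end of the contrast differed as well, since the G2/M genes outside the score stood at 19876 CPM in the lowest decile of mESCs, 9386 CPM in that of N2a and 9903 CPM in that of NIH/3T3.

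Histone genes had ratios over the lowest 50% on opposite sides of 1 in mESCs and in the other lines. Against the middle group, they were lower in G2/M-high cells of all 3 lines. G2/M-high cells and the middle group were at 445 and 899 CPM in mESCs, 2245 and 2893 in N2a, and 1440 and 2694 in NIH/3T3. The lowest 50% stood at 1220, 1154 and 1263 CPM. The summed ratio of histone genes over the lowest 50% was 0.364 (0.338 to 0.392) in mESCs, 1.94 (1.88 to 2.01) in N2a and 1.14 (1.09 to 1.19) in NIH/3T3. It was above 1 in 1 of 32 BC1 wells of mESCs, 30 of 32 of N2a and 18 of 32 of NIH/3T3. In N2a, 18 of 19 histone genes with at least 10 CPM were at least 1.5-fold higher, and in NIH/3T3, 1 of 15. H1f5 was at 86.6 CPM in G2/M-high mESCs against 268 CPM in the lowest 50%, at 756 against 386 CPM in N2a, and at 367 against 344 CPM in NIH/3T3. By decile, the histone list was highest in decile 7 in both other lines, at 3108 CPM in N2a and 3222 CPM in NIH/3T3, and stood at 411 and 343 CPM in decile 1. S phase genes were lower in G2/M-high cells of all 3 lines, with ratios of 0.876 in mESCs, 0.843 in N2a and 0.783 in NIH/3T3.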

How the data were processed

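The mESC, N2a and NIH/3T3 cells were pooled after the BC1 step of CapSeq and sequenced together. The authors demultiplexed reads by BC1, trimmed them and counted them with STARsolo on GRCm39 with GENCODE M30, and deposited raw UMI counts per gene and barcode, with all 884736 barcodes and no cell filter. The feature mode and strand setting are not given in the sources used here. The pooled matrix, made from the same sequencing run without BC1 splitting, served as an alternative. Total counts per matrix ranged from 13505027 to 49185518 UMIs.

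UMIs were summed over cells and scaled to CPM. Genes with at least 10 CPM over all filtered cells of a line were compared as log2 of the (CPM + 1) ratio, and a ratio of 1.5 or more in either direction was counted. Intervals at 95% are exact Poisson for levels, exact binomial (Clopper-Pearson) for ratios, and from order statistics for medians. Named genes were the 12 score genes, the 10 largest and 10 smallest ratios at 25 CPM or more, the 3 largest and the smallest of each list at 10 CPM or more, and 17 markers, of which those that bear on the text are given. A gene that this rule names is not reported here. Histone, ribosomal and mitochondrial lists were made by gene symbol. Members, lists and rules were chosen with earlier results of these data known. Of 33565 gene identifiers, 32953 were found in GENCODE M39. The alternatives changed the depth, mitochondrial and expression filters, the share of cells, the score, the pseudocount, centring and weighting. Calculations used Python 3.11.15, numpy 2.4.6, scipy 1.17.1 and pandas 2.3.3, and were tested on simulated data.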

Additional observations from a re-analysis of the deposited data

Results flagged for a closer look

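Given here are ratios of G2/M-high cells over the lowest 50% that went opposite ways in mESCs and in another line. None of these differences was tested, since each line was 1 sample. The 15 G2/M transcription regulators summed to a ratio of 0.876 in mESCs, 1.11 in N2a and 1.17 in NIH/3T3. Replication-dependent histone genes summed to 0.364 in mESCs, 1.94 in N2a and 1.14 in NIH/3T3, where 18 of 32 BC1 wells were above 1. Histone genes were nonetheless lower in G2/M-high cells than in the middle group of each line. They were at 445 against 899 CPM in mESCs, 2245 against 2893 in N2a, and 1440 against 2694 in NIH/3T3. The regulators were at 1092 against 1219 CPM in N2a and 1148 against 1139 CPM in NIH/3T3.

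Between mESCs and N2a, 7 named genes with at least 10 CPM in both lines differed by 1.5-fold or more in opposite directions. Values are log2 ratios of (CPM + 1). H1f3 had -2.70 in mESCs and 0.90 in N2a, H2ac8 had -2.03 and 0.88, and H1f1 had -1.78 and 0.77. H1f5 had -1.62 in mESCs and 0.97 in N2a, H4c4 had -1.35 and 0.94, and H1f2 had -1.20 and 0.92. The noncoding RNA 6720427I07Rik had -1.41 in mESCs and 0.60 in N2a.

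Between mESCs and NIH/3T3, 2 genes did so. Ssbp2 had a log2 ratio of -1.27 in mESCs and 0.80 in NIH/3T3, from 23 UMIs in G2/M-high mESCs. The mESC value was -0.52, under 1.5-fold, when Top2a was left out of the score. Jun had 0.77 in mESCs and -0.66 in NIH/3T3.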

How the results depend on the processing

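Of 16 alternatives, 11 gave values for the summed ratios of 12 mESC gene lists and 14 for the log2 ratios of the 20 mESC genes with the largest and smallest ratios, and none of these ratios changed direction. The other ratios were not recomputed. The summed ratio of the G2/M genes outside the score was 1.29 when the score came from cells thinned to 2000 UMIs, 1.37 with the highest 10% as members, 1.32 with the highest 20%, and 1.39 against the lowest 25%, with 1.34 in the main analysis. That of S phase genes stayed between 0.869 and 0.890, and that of histone genes between 0.326 and 0.460, the latter with the thinned score. The counts of genes past 1.5-fold depended most on the handling of low genes. They were 1981 higher and 2362 lower with no filter on low values, 127 and 96 with a filter of 20 CPM, and 151 and 128 with a pseudocount of 5 CPM, and 444 were lower with the highest 10% as members. The median number of UMIs per member was 5993 with a minimum of 3000 UMIs, which removes shallower cells. The thinned score kept 211 of the 279 members (75.6%), and a score without Top2a kept 221 (79.2%). For Ssbp2, the log2 ratio was -0.66 with the thinned score and -0.52 without Top2a in the score, in place of -1.27, and the latter is under 1.5-fold. The log2 ratio of H1f3 was -1.86 with the thinned score, in place of -2.70, and that of Aurka was 2.189 against the lowest 25%, in place of 1.57. The cause of these changes was not tested. No paired analysis was possible because each line was 1 sample. The depth limits the score itself, at a median of 36 UMIs per member.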
